A study of Mus musculus with 6 samples.

Results

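Talin, kindlin and RAP1 form the machinery inside the cell that switches integrins on. This machinery was described through 10 genes chosen by their symbols, and all 10 are among the 14051 genes in the table. They are Tln1 (talin-1), Fermt3 (kindlin-3), Rap1a and Rap1b (the RAP1 GTPases), Rassf5 (RAPL), Apbb1ip (RIAM), Skap1 (SKAP1), Fyb (ADAP), Vcl (vinculin) and Actn1 (α-actinin-1). Their expression was compared between 3 GC-treated and 3 vehicle-treated bulk RNA-Seq libraries of circulating donor CD8+ T cells.

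Integrins on a resting T cell are bent and bind their ligands weakly. Signals from the T cell receptor or from chemokine receptors load RAP1 with GTP, and RAP1 with its effectors brings talin to the tail of the integrin β chain. Talin and kindlin bind that tail together and shift the integrin to the form that binds firmly, while vinculin and α-actinin tie the bound talin to actin filaments. In leukocytes kindlin-3 is the kindlin in use, and its loss causes a leukocyte adhesion deficiency.

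Both groups were irradiated B6D2F1 recipients, and the T cells given to them had been purified from B6.CD45.1 mice. The GC-treated recipients were given dexamethasone i.p. at 5 mg/kg/day from day -1 to day 5, and the vehicle-treated recipients were given methyl β-cyclodextrin, its carrier. An antibody against CD45 was injected i.v. shortly before the animals were killed on day 5, and the donor CD8+ T cells that it had labelled inside the vessels were sorted from BM. BM of 2 to 3 mice was pooled for each biological group, and it is not stated whether every library came from a pool of its own, so p-values measure only the spread between these libraries, which may be technical.

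The values are normalized counts, which are read counts divided by 1 size factor per library. The GC-treated libraries held 67887570 to 76888118 reads and the vehicle-treated libraries 60949593 to 64801008. Of 12 CD8+ T cell markers 11 were in the table, with summed normalized counts of 419494 to 499837 in the GC-treated and 419231 to 445856 in the vehicle-treated libraries. Of 12 platelet markers, relevant because platelets are rich in talin, kindlin-3, RAP1B and vinculin, 6 were in the table. Each of these 6 was at 0 in at least 1 library, and together they summed to 19 to 45 in the GC-treated and 21.8 to 184 in the vehicle-treated libraries. The 10 neutrophil genes found of 13 listed summed to 1840, 12746 and 8980 in the GC-treated libraries 1 to 3, against 789, 469 and 4302 in the vehicle-treated ones, and Ltf (lactoferrin), their highest, was at 0 in vehicle-treated 1. The 6 erythroid genes found of 8 summed to 307 to 378 against 407 to 818, and the 6 CD4+ T cell genes to 4496 to 4663 against 4983 to 6273. Ctla4, with means of 3373 and 4054, was the highest of these 6. Cd4 itself was at 106, 86.3 and 164 against 97.1, 138 and 178, with overlap. Of the 6, 2 (Cd40lg and Tnfsf8) were lower without overlap, and all 6 had negative log2 fold changes. The 10 monocyte and macrophage genes found of 12 summed to 1763 to 2418 against 2261 to 2516. Of these 10, Cd163 alone had groups that did not overlap and was lower, against 6.4% of all genes lower. The 4 B cell genes found of 6 summed to 1243 to 1731 against 1258 to 1670. The 9 genes of stroma and endothelium summed to 2572 to 3825 against 2946 to 3150. Of these, Cxcl12 was at 721 in GC-treated 3 and at no more than 58.4 in any other library. The part of these other cell types in the results was not tested. Fkbp5, which glucocorticoids induce in many cells, was at 21148, 16401 and 14780 in the libraries labelled GC-treated and at 24889, 32705 and 21271 in those labelled vehicle-treated, so its direction went against that induction. Dusp1, also a glucocorticoid target, was at 9343, 8495 and 6076 against 6151, 5872 and 5048. Of the 7 glucocorticoid targets tested, Dusp1 was the 1 gene with a positive log2 fold change (0.47), and the other 6, Fkbp5 (-0.59), Ddit4 (-0.65), Sgk1 (-0.33), Per1 (-0.26), Tsc22d3 (-0.23) and Klf9 (-0.17), were negative. By limma 0 of the 7 passed the adjusted threshold. All directions given here rest on the labels.

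GC-treated 1 stood apart from the other GC-treated libraries. In this library 53.5% of all tested genes lay within the range of the vehicle-treated libraries, whereas the share was 35.5% for GC-treated 2 and 26.6% for GC-treated 3. Of the 10 integrin activation genes, GC-treated 1 had 5 within that range, GC-treated 2 had 0 and GC-treated 3 had 3. For the 10 genes, log2 fold changes that move by over 1.5 times without a library are therefore given with and without it, or as a range. Those of all other genes are given from all 6 libraries only, and how far they move without a library is not shown.

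The closest pair among these genes is Rap1a and Rap1b. Both coding sequences are 552 bases long, and 81.7% of their bases are identical, with a longest shared run of 20 bases. The first 90 coding bases, which encode the start of the GTP-binding fold including its phosphate-binding loop, are shown to let the pair be told apart. Capitals mark the 13 bases that differ. Both stretches are read 5′ to 3′ on the minus strand over 2 exons in GRCm39, Rap1a at chr3:105653256-105657617 and Rap1b at chr10:117658742-117660555.
Rap1a: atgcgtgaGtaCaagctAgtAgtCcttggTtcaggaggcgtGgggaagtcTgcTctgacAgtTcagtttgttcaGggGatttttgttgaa
Rap1b: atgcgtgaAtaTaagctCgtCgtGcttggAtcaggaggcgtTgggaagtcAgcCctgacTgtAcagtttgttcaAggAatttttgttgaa

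Both RAP1 genes were expressed, and Rap1b was the higher. Levels were compared between genes per kb of canonical transcript, as the mean and SD over all 6 libraries. Rap1b had the highest level of the 10 genes, with 19965 ± 1818 normalized counts per kb, and 98.4% of all tested genes lay below it. Skap1 followed with 14732 ± 1455. Fermt3 with 9027 ± 841, Tln1 with 7922 ± 1682 and Rassf5 with 7750 ± 670 came next, and these neighbours overlapped in their ranges over the libraries. Rap1a with 4800 ± 415 and Fyb with 4043 ± 298 also overlapped each other. Apbb1ip, the RIAM gene, stood well below the other RAP1 effector gene Rassf5, with 951 ± 137. Vcl with 125 ± 27.3 and Actn1 with 94.1 ± 36.9 were lowest and overlapped, and they exceeded only 27.4% and 24.8% of the tested genes, respectively. Among the 10 genes, those of RAP1, RAPL, talin, kindlin-3 and the adaptors were thus high, Apbb1ip stood between, and Vcl and Actn1 were low. This does not hold for every gene of the link to actin, since Actn4, another α-actinin gene, was at 16341 ± 458.

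**Figure D1:**
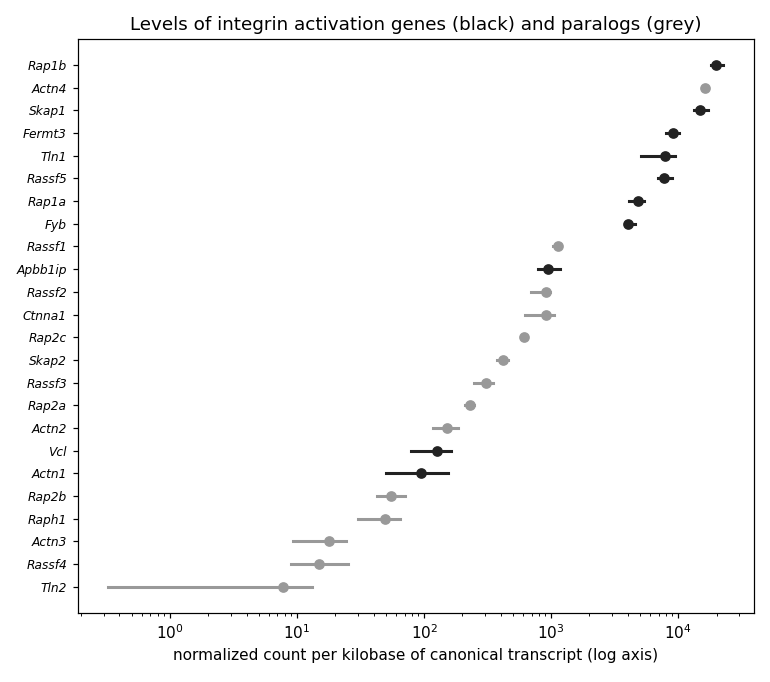
Normalized counts per kb of canonical transcript (log axis) for the 10 genes and for related genes in the table, where points are means over the 6 libraries and lines run from the lowest to the highest library. Rassf6 and Pram1, below 5 normalized counts per kb, are not drawn. Rap1b and Skap1 are the highest of the 10 genes, Vcl and Actn1 the lowest, and Actn4 lies between Rap1b and Skap1.

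The related genes were mostly below the family member described here, with Actn4 and Actn2 above Actn1, and Ctnna1 (α-catenin, a relative of vinculin, at 911 ± 158 normalized counts per kb) above Vcl, as exceptions. Tln2 (talin-2) was at 7.79 ± 4.47 normalized counts per kb against 7922 for Tln1. Actn4 (α-actinin-4) was at 16341 ± 458 and Actn1 at 94.1, so nearly all non-muscle α-actinin transcript came from Actn4, which was at 66762, 67541 and 64183 normalized counts in the GC-treated and 65937, 62569 and 66281 in the vehicle-treated libraries. Its log2 fold change was 0.03 with a 95% confidence interval of -0.13 to 0.19. Skap2 was at 416 ± 36.5 per kb against 14732 for Skap1. The nearest GTPase relatives, Rap2c at 612 ± 21.3, Rap2a at 228 ± 14.4 and Rap2b at 55 ± 12.1, were below both RAP1 genes. Raph1 (lamellipodin), a relative of Apbb1ip, was at 49.5 ± 13.1. The relatives of Rassf5 were Rassf1 at 1123 ± 45.6, Rassf2 at 912 ± 109, Rassf3 at 305 ± 37.9, Rassf4 at 14.9 ± 6.19 and Rassf6 at 4.49 ± 3.89, all below the 7750 of Rassf5. The muscle α-actinin genes Actn2 and Actn3 were at 150 ± 23.8 and 17.7 ± 5.05, and Pram1, a relative of Fyb, was at 2.33 ± 1.61. The other kindlin genes were not analysed here. The longest run shared by the coding sequences of Actn1 and Actn4 is 65 bases. Only a read no longer than that could lie wholly within it, and the effect on the low Actn1 count was not tested.

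None of the 10 genes passed the test between GC-treated and vehicle-treated libraries. In limma with Benjamini-Hochberg adjustment over 11649 genes, 0 of the 10 and 0% of all tested genes had an adjusted p under 0.05 in either direction, and the smallest adjusted p was 0.62. At an unadjusted p under 0.05, 0 genes of the 10 were higher and 2, Tln1 and Actn1, were lower, against 2.12% of all genes higher and 5.07% lower. Tln1 alone had groups that did not overlap, where 6.4% of all genes were higher and 6.4% lower without overlap. On the recovered reads, the edgeR quasi-likelihood test with TMM also called 0 of the 10, with the same 2 genes lower at an unadjusted p under 0.05, against 2.28% of all genes higher and 3.79% lower. DESeq2 called 0 of the 10 at an adjusted p under 0.05, against 0% of all genes higher and 0.0143% lower. In bulk samples fewer cells of a type and less RNA per cell cannot be told apart, which holds for every gene below.

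**Figure D2:**
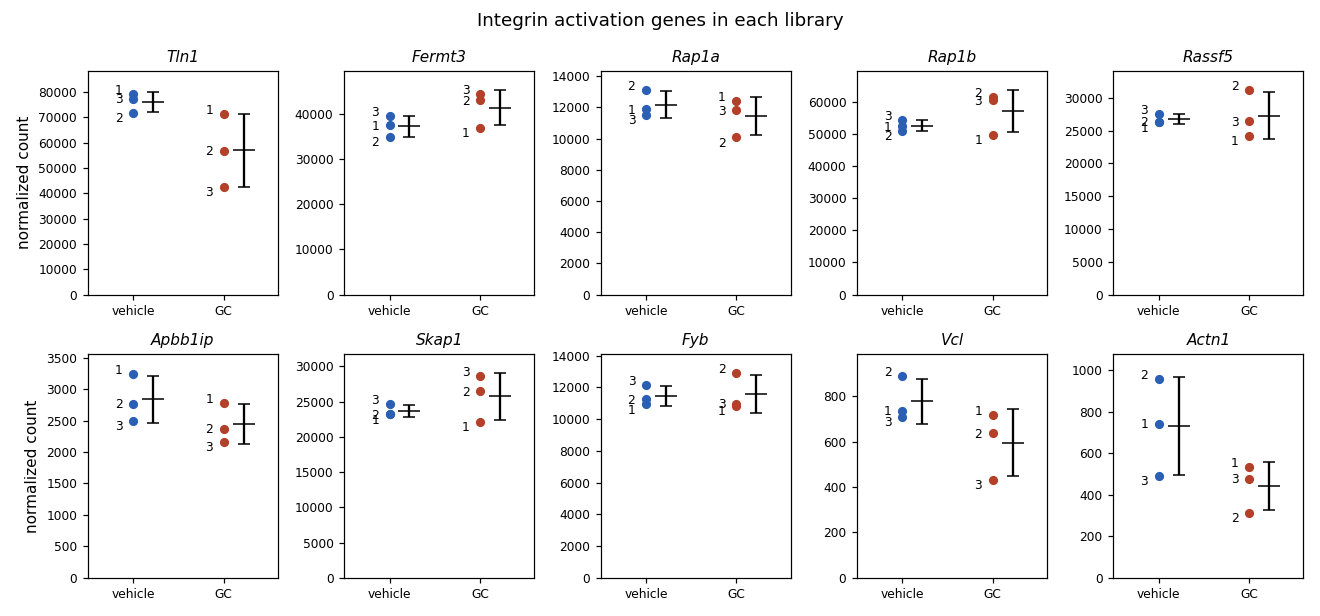
Normalized counts of the 10 genes in each library (numbers are replicate numbers), with the group mean and SD (n = 3 per group) beside the points. Tln1 is the gene with all GC-treated libraries below all vehicle-treated ones, and GC-treated 1 is the nearest of them to the vehicle-treated libraries.

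Tln1 encodes talin-1, the protein that binds the integrin β tail and actin. It lies at chr4:43531513-43562691 on the minus strand in GRCm39 and shares exon sequence with Creb3 on the other strand. The GC-treated libraries 1 to 3 had normalized counts of 71511, 56854 and 42565, and the vehicle-treated libraries 1 to 3 had 79173, 71691 and 77405. Every GC-treated library was below every vehicle-treated library, but GC-treated 1 lay just under vehicle-treated 2, and the GC-treated libraries were spread far more widely than the vehicle-treated ones. The means were 56977 ± 14474 and 76090 ± 3911 (SD, n = 3 each), a log2 fold change of -0.45 with an SE of 0.16 and a 95% interval of -0.81 to -0.08, at an unadjusted p of 0.022 and an adjusted p of 0.62 in limma. Without GC-treated 1 the log2 fold change was -0.63 with an adjusted p of 0.068 in limma, and without GC-treated 3 it was -0.25. GC-treated 1 was the GC-treated library that lay most within the vehicle-treated range. Without it the genes lower at an unadjusted p under 0.05 in limma rose from 591 to 1424 among all tested. The smaller p of Tln1 is therefore no added support.

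Fermt3 encodes kindlin-3, the partner of talin at the integrin tail. It lies at chr19:6974559-6996837 on the minus strand, where it shares exon sequence with Trpt1. The normalized counts were 36844, 42918 and 44277 in the GC-treated and 37405, 34875 and 39490 in the vehicle-treated libraries. GC-treated 2 and 3 were above all vehicle-treated libraries, and GC-treated 1 was between them. The log2 fold change was 0.15 (SE 0.09, 95% interval -0.06 to 0.36, adjusted p = 0.63 in limma), so that a change beyond 0.36 in either direction lies outside the interval. Without GC-treated 1 it was 0.23, and without GC-treated 3 or vehicle-treated 2 it was 0.10.

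Rap1a and Rap1b encode the GTPases that act on talin. Rap1a (chr3:105634567-105708715, minus strand) was at 12401, 10071 and 11831 normalized counts in the GC-treated and 11887, 13134 and 11522 in the vehicle-treated libraries. The groups overlapped, with GC-treated 2 the lowest library of all. Its log2 fold change was -0.09 (SE 0.10, 95% interval -0.33 to 0.14, adjusted p = 0.75 in limma), and it was -0.16 without GC-treated 1, -0.01 without GC-treated 2 and -0.04 without vehicle-treated 2. Rap1b (chr10:117648424-117681972, minus strand) was at 49784, 61670 and 60606 in the GC-treated and 52492, 51035 and 54436 in the vehicle-treated libraries. Here GC-treated 1 was the lowest library and GC-treated 2 and 3 the highest. Its log2 fold change was 0.12 (SE 0.10, 95% interval -0.10 to 0.34, adjusted p = 0.69). It was 0.22 without GC-treated 1, 0.06 without GC-treated 2 and 0.07 without GC-treated 3. Neither interval of the pair excluded 0.

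Rassf5 and Apbb1ip encode RAPL and RIAM, which bind GTP-loaded RAP1. Rassf5 (chr1:131104147-131173153, minus strand, sharing exon sequence with Eif2d) was at 24213, 31223 and 26433 normalized counts in the GC-treated and 26240, 26360 and 27579 in the vehicle-treated libraries. GC-treated 1 was the lowest and GC-treated 2 the highest of all libraries. The log2 fold change was 0.02 (SE 0.10, 95% interval -0.21 to 0.25), and it turned to -0.08 without GC-treated 2 and was 0.10 without GC-treated 1, the ends of its range when each library was left out. Apbb1ip (chr2:22664106-22765665, plus strand) was at 2785, 2368 and 2162 in the GC-treated and 3238, 2770 and 2499 in the vehicle-treated libraries. GC-treated 2 and 3 were below all vehicle-treated libraries, and GC-treated 1 was above vehicle-treated 2 and 3. Its log2 fold change was -0.22 (SE 0.14, 95% interval -0.53 to 0.09, adjusted p = 0.63 in limma), and it was -0.12 without vehicle-treated 1, -0.13 without GC-treated 3 and -0.32 without GC-treated 1.

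Skap1 and Fyb encode SKAP1 and ADAP, adaptors that bind each other and link the T cell receptor to RAP1 and its effectors. Skap1 (chr11:96354974-96650447, plus strand) was at 22149, 26450 and 28644 normalized counts in the GC-treated and 23178, 23181 and 24629 in the vehicle-treated libraries. GC-treated 2 and 3 were again above all vehicle-treated libraries, with GC-treated 1 below them. The log2 fold change was 0.11 (SE 0.10, 95% interval -0.12 to 0.35, adjusted p = 0.71 in limma), and it was 0.22 without GC-treated 1 and 0.03 without GC-treated 3. Fyb, named Fyb1 in the annotation (chr15:6552334-6692794, plus strand), was at 10822, 12927 and 10970 in the GC-treated and 10925, 11261 and 12158 in the vehicle-treated libraries. The groups overlapped, and the log2 fold change was 0.01 (SE 0.10, 95% interval -0.21 to 0.23), with a range of -0.07 (without GC-treated 2) to 0.06 (without GC-treated 1) when each library was left out. The intervals of Rassf5 and Fyb, with bounds of at most 0.25 in size, stayed nearest to 0 of the 10 genes, though they were not the narrowest.

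Vcl and Actn1 encode vinculin and α-actinin-1, which tie talin to actin. Vcl (chr14:20979449-21083758, plus strand, sharing exon sequence with Ap3m1) was at 719, 637 and 432 normalized counts in the GC-treated and 736, 890 and 707 in the vehicle-treated libraries. GC-treated 1 lay between vehicle-treated 3 and 1, and GC-treated 2 and 3 were below all vehicle-treated libraries. The means were 596 ± 148 and 778 ± 98, a log2 fold change of -0.41 (SE 0.21, 95% interval -0.88 to 0.06) with an adjusted p of 0.62 in limma, and of -0.19 without GC-treated 3. Actn1 (chr12:80212233-80307547, minus strand) was at 534, 311 and 478 in the GC-treated and 743, 960 and 490 in the vehicle-treated libraries. All GC-treated libraries except GC-treated 1 were below vehicle-treated 3, the lowest of its group. The means were 441 ± 116 and 731 ± 235, with a log2 fold change of -0.71 (SE 0.28, 95% interval -1.35 to -0.07), an unadjusted p of 0.033 and an adjusted p of 0.62. Without vehicle-treated 3 it was -0.97, and without GC-treated 2 it was -0.48. The lowest Actn1 count rests on 313 reads, a counting error of 5.65%, which is small against the spread between libraries.

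**Figure D3:**
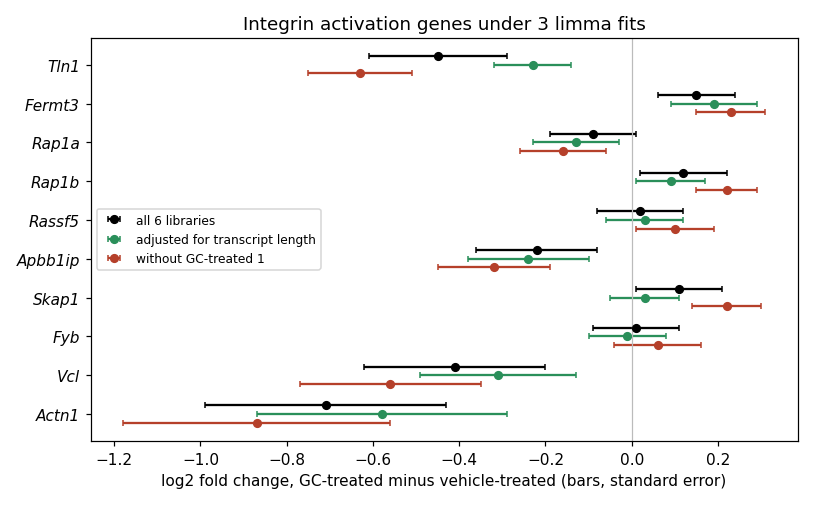
Log2 fold change (GC-treated minus vehicle-treated) of each of the 10 genes in limma with all 6 libraries, after adjustment for transcript length and without GC-treated 1, where bars are standard errors. Tln1 is at -0.45, -0.23 and -0.63 in these fits, and none of the 10 genes passed the adjusted threshold in any of them. GC-treated 1 lay most within the vehicle-treated range, so larger differences without it are no added support.

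The 10 genes differed widely in how far they varied over the 6 libraries. Actn1 ranged over 1.62 on the log2 scale, Vcl over 1.04, Tln1 over 0.90 and Apbb1ip over 0.58, against a median of 0.51 over all tested genes. The other 6 genes ranged over 0.26 to 0.38. The genes whose log2 deviations over the 6 libraries lay nearest to those of Tln1 were Tet3, Magi3 and Asxl1, with root mean square differences of 0.035, 0.038 and 0.045 among 9682 genes. For Rap1b they were Arf4, Golga7 and Pitpna (0.011 to 0.02), for Fermt3 Necap2, Abhd16a and Lypla2 (0.017 to 0.02), and for Skap1 Cd6, Grap and Wtap (0.019 to 0.021). For Vcl they were Ankle1, Rnf43 and Cbx5 (0.028 to 0.038). The genes nearest to Actn1 were Tns1 (tensin-1, also an adhesion plaque gene), Nr4a3 and Dtx4, and at 0.14 to 0.17 they lay farther from it.

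Transcript length moved with these differences. Among the 1814 tested genes with a canonical transcript over 6000 bases, the GC-treated libraries 1 to 3 had median log2 deviations from the gene mean of 0.09, -0.03 and -0.34, and the vehicle-treated ones of 0.12, 0.12 and 0.08. Among the 626 genes of up to 1000 bases it was 0.22 in GC-treated 3 and between -0.10 and -0.00 in the other libraries. Long transcripts thus read low, and short ones high, in GC-treated 3. Tln1 has the longest transcript of the 10 genes, with 8399 bases, followed by Actn1 with 6224 and Vcl with 5485, while Skap1 is the shortest with 1677. After each library's trend over length was taken out, the log2 fold change of Tln1 was -0.23 (SE 0.09) and its groups overlapped, that of Vcl was -0.31 (SE 0.18) and that of Actn1 -0.58 (SE 0.29). Fermt3, with 4354 bases, was at 0.19 (SE 0.10) and Skap1 at 0.03 (SE 0.08) after the same step. At an unadjusted p under 0.05 1 of the 10 genes, Tln1, was lower and 0 were higher, against 4.07% and 2.98% of all genes.

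**Figure D4:**
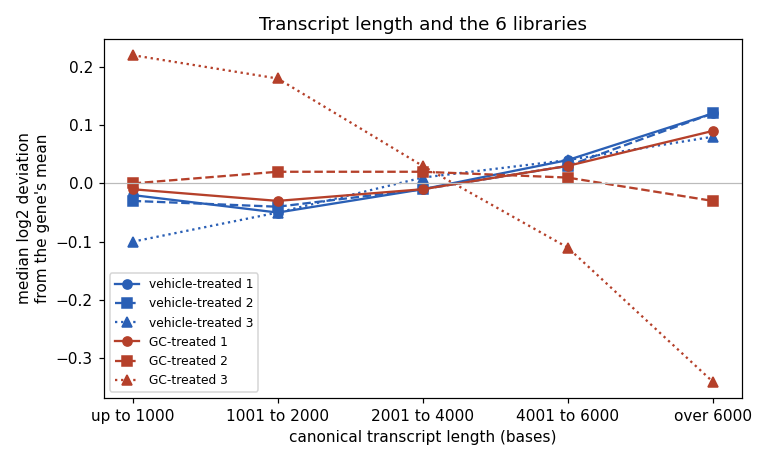
Median log2 deviation of each library from the gene means, for tested genes grouped by canonical transcript length in bases. GC-treated 3 runs from 0.22 in the shortest class to -0.34 in the longest, and the vehicle-treated libraries run the other way, to between 0.08 and 0.12.

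Other genes of the pathway were taken from 7 lists, of which 90 genes of 106 listed were tested. By limma none had an adjusted p under 0.05. At an unadjusted p under 0.05, 0 of the 90 were higher and 8, or 8.89%, were lower, against 2.12% and 5.07% of all genes, and their median log2 fold change was -0.09 against -0.01 over all genes. Of these 8 genes, 4 have transcripts over 6000 bases, against 263 of the 591 genes lower at that level among all tested. After the length adjustment 4 genes of the 90 (Flna, Ptk2, Tns2 and Itgb3) were lower at that level, against 4.07% of all genes. Higher were 2 (Mob1b and Git1, named after their values were seen), against 2.98% of all genes. The counts after the adjustment are near those shares, and the median of the 90 genes was then -0.03.

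The relatives of the 10 genes numbered 15 tested, of which 2 (13.3%) were lower at an unadjusted p under 0.05 in limma, against 5.07% of all genes. Rap2b, a RAS-family GTPase, was at 348, 288 and 290 normalized counts against 479, 463 and 375 (log2 fold change -0.50), and Raph1 at 481, 444 and 309 against 661, 655 and 484 (-0.55). Both had groups that did not overlap, and so had Rap2c (-0.08) and Rassf2 (-0.20). These are 4 of the 15 in the lower direction, against 6.4% of all genes. After the length adjustment neither was left at that level.

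The exchange factors that load RAP1 with GTP had 0 of 9 at an unadjusted p under 0.05, with a median log2 fold change of -0.32, which was -0.18 after the length adjustment. Rasgrp1, the highest of them, was at 18490, 24223 and 18956 against 18866, 16454 and 24153 (0.06). Rasgrp2, encoding CalDAG-GEFI, an exchange factor for RAP1 in lymphocytes and platelets, was at 8768, 6173 and 6464 against 9068, 13365 and 7080 (-0.43). Rapgef1, an exchange factor recruited by CRK adaptors, was at 7533, 6098 and 4832 against 7928, 7270 and 6840 (-0.28). Rasgrp4, chiefly a gene of mast cells and other myeloid cells, was at low counts of 18.2, 39.7 and 46.9 against 8.73, 11.9 and 19.8 (1.28). Whether it moved with the neutrophil RNA of the libraries was not tested.

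The GTPase-activating proteins that switch RAP1 off had 0 of 6 at that level, with a median of -0.31, which was -0.18 after the length adjustment. Sipa1 (SPA-1), the highest, was at 38982, 39586 and 36697 against 38587, 37701 and 38723, with a log2 fold change of 0.00 and a 95% interval of -0.16 to 0.17. Rasa3 was at 22643, 19399 and 15508 against 23688, 28190 and 19238 (-0.31). Sipa1l3 was at 655, 526 and 338 against 845, 609 and 713 (-0.55), and Sipa1l1 at 9120, 7112 and 5086 against 9281, 8053 and 8430 (-0.31). In each of these 3 genes GC-treated 3 was the lowest library.

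Regulators that bind talin or the integrin tail had 1 of 14 (7.14%) lower at that level, against 5.07% of all genes. This was Flna, which encodes filamin A, a competitor of talin for the β tail. It was at 129074, 105296 and 74129 against 141869, 140619 and 134624, with no overlap between the groups (log2 fold change -0.47, SE 0.17, adjusted p = 0.62 in limma). After the length adjustment it was -0.21, still without overlap. Mob1a, encoding a partner of the MST1 kinase that RAPL binds, was at 22663, 24261 and 19027 against 24899, 24058 and 26111 (-0.19). Sharpin, an inhibitor that holds the integrin α chain inactive, was at 4241, 4473 and 4650 against 3929, 3915 and 3857 (0.19, SE 0.09, adjusted p = 0.62), and it was the 1 gene of the 90 whose groups did not overlap in the higher direction. In the lower direction 8 of the 90 did not overlap, against 6.4% of all genes in each direction.

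Adhesion plaque genes had 3 of 23 (13%) lower at an unadjusted p under 0.05 in limma, against 5.07% of all genes. Their median log2 fold change was 0.05, before and after the length adjustment. After that adjustment 2 of the 23 were lower and 1 was higher at that level, against 4.07% and 2.98% of all genes. Ptk2b, encoding PYK2, the focal adhesion kinase family member that T cells express most, was at 18376, 16723 and 15300 against 20940, 18137 and 19838 (-0.23). Ptk2, encoding focal adhesion kinase itself, was at no more than 92.9 in any library (-1.12), and Tns2 at no more than 185 (-1.57). Zyx (zyxin), the highest, was at 33043, 37084 and 35746 against 37026, 30379 and 35452 (0.05). The abundant plaque gene Zyx thus gave near-equal means, and the largest differences belonged to genes of low count.

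Adaptors and kinases next to the T cell receptor had 0 of 13 at that level, with a median of 0.07. Lck, the kinase that starts receptor signalling and the highest of the list, was at 91726, 108367 and 115511 against 98177, 95347 and 98926 (0.10). Lat, the membrane adaptor, was at 26544, 35309 and 35539 against 26169, 23221 and 29983 (0.29). Lcp2 (SLP-76), which binds ADAP, was at 30234, 35716 and 36117 against 31533, 27833 and 32614 (0.15), and Grap2 (GADS), which joins SLP-76 to LAT, was at 5904, 8211 and 6057 against 6203, 5091 and 6018 (0.21). In Lat, Lcp2 and Lck, GC-treated 2 and 3 were above all vehicle-treated libraries and GC-treated 1 was not, as was so for Fermt3, Skap1 and Rap1b.

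Integrin chains had 2 of 10 (20%) lower at that level, against 5.07% of all genes. After the length adjustment 1 of these 10, Itgb3, was lower at that level and 0 were higher, against 4.07% and 2.98% of all genes. The median log2 fold change of the chains went from -0.22 to -0.15. Itga1 and Itga4 have long transcripts, with 11144 and 9951 bases. Itga1, the α1 chain of a collagen receptor, was at 2888, 3558 and 2384 against 4223, 3913 and 3923, without overlap (-0.47, SE 0.14, unadjusted p = 0.0096, adjusted p = 0.62 in limma). Itgb3, the β3 chain, was at 2049, 1036 and 1278 against 2005, 2896 and 2070 (-0.72). Itga4, the α4 chain, was at 23137, 16090 and 8796 against 24793, 29933 and 17729 (-0.67, adjusted p = 0.62). Itgb2, the β2 chain of LFA-1 and the highest, was at 77349, 86157 and 84514 against 84225, 74492 and 85169 (0.03, 95% interval -0.17 to 0.22).

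**Figure D5:**
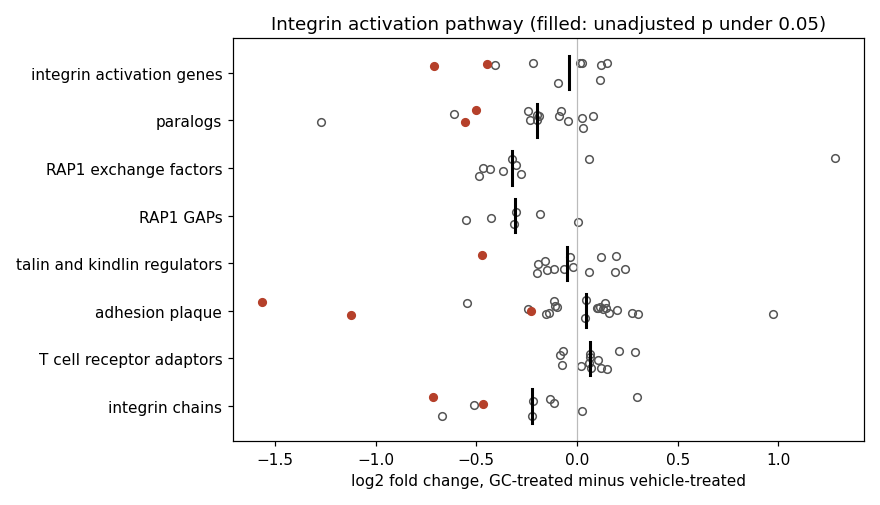
Log2 fold change (GC-treated minus vehicle-treated) of each tested gene of the 10 genes and the 7 pathway lists, where filled points have an unadjusted p under 0.05 in limma and black bars are the medians of the lists. All 8 filled points outside the 10 genes lie below 0, and none of these genes passed the adjusted threshold.

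The start sites of the 10 genes were searched for binding motifs because vinculin, α-actinin and talin genes are textbook targets of serum response factor, and because dexamethasone acts through the glucocorticoid receptor. Promoters of 250 bases before to 50 after the start were found for 8 of the 10 genes in a RefSeq table. Rap1a and Skap1 were not among them. For Rassf5 (chr1:131127873-131128172) and Fyb (chr15:6609078-6609377) the searched window lies at a start well inside the gene span given above. Other starts of the genes were not searched. The CArG box, the motif of serum response factor, was searched on both strands and found in 1 of the 8, Vcl, against 1.63% of 32851 promoters. The Vcl promoter is shown with that motif in capitals (RefSeq, located by exact match in GRCm39 at chr14:20979216-20979515, plus strand).
Vcl: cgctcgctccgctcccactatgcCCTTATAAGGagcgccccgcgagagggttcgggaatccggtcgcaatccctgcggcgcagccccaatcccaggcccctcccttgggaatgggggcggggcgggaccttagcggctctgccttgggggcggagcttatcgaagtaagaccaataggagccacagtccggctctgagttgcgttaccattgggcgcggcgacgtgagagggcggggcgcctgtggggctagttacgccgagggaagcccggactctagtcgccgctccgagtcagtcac
The glucocorticoid response element, searched as AGAACA followed by 3 bases of any kind and then by TGTTCT, was in 0 of the 8 promoters and in 0.00913% of all promoters. Its shorter part AGAACA, searched on both strands and contained in the full element, was in 2 of the 8, Apbb1ip and Fermt3, against 19% of all promoters. A match is a description of these letters in this window.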

How the data were processed

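Bulk RNA-Seq of 6 libraries was analysed, with groups taken from the sample labels. The authors aligned reads with STAR to GRCm39, counted them per gene with summarizeOverlaps and deposited normalized counts, a signal obtained by dividing the counts of a library by its DESeq2 size factor. The sources used here name no versions for these tools. All values (100%) were within 0.001 of a whole multiple of 1 step per library, so reads were recovered; the step of GC-treated 2 lies too near 1 for an independent check of that column.

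Because the values are normalized, limma 3.58.1 in R 4.3.3 was fitted with a mean-variance trend to log2(normalized count + 1), on the 11649 genes that reached a normalized count of 10 in 3 or more libraries. Fold changes are on that scale, which understates those of low genes. P-values were adjusted by Benjamini-Hochberg with a threshold of 0.05. The test was checked on simulated data. Alternatives were edgeR 4.0.16 and DESeq2 1.42.0 on the recovered reads, TMM scaling, limma without trend, other pseudocounts, filters and thresholds, a replicate block and leaving out each library. The genes and lists were chosen with earlier results of these data known. A further gene of the pathway is left out of the lists and not reported here. All 10 genes and their relatives were named, and of each pathway list the 3 genes with the smallest p and the one with the highest mean. The 3 genes with a mean of at least 100 nearest in log2 deviations were named for Tln1, Rap1b, Fermt3, Skap1, Vcl and Actn1. Those of Rap1a, Rassf5, Apbb1ip and Fyb were found in the same way and are not named. Gene models are from Gencode M39, later than the annotation the authors used on the same build. Strand is not marked by the library kit, which leaves overlapping genes uncertain. Depth was 60949593 to 76888118 reads, and with 3 libraries against 3 an exact permutation p cannot go below 0.1.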

Additional observations from a re-analysis of the deposited data

How the results depend on the processing

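Under all 18 alternatives 0 of the 10 genes had an adjusted p under 0.05. Of the 90 pathway genes analysed here 0 did, also when each library was left out. In limma without the trend 0 of the 10 genes had an unadjusted p under 0.05. Without GC-treated 1 the 7 genes Tln1, Fermt3, Rap1b, Apbb1ip, Skap1, Vcl and Actn1 had one in limma. There 971 genes of all tested were higher and 1424 lower at that level, against 247 and 591 with all 6 libraries. The cause was not tested. Leaving out 1 library moved the log2 fold change of Tln1 between -0.63 and -0.25, of Vcl between -0.56 and -0.19, of Actn1 between -0.97 and -0.48, of Fermt3 between 0.10 and 0.23, of Rap1a between -0.16 and -0.01, of Rap1b between 0.06 and 0.22, of Rassf5 between -0.08 and 0.10, of Apbb1ip between -0.32 and -0.12, of Skap1 between 0.03 and 0.22 and of Fyb between -0.07 and 0.06. Directions turned for Rassf5 (-0.08) and Fyb (-0.07) without GC-treated 2, and for Fyb without vehicle-treated 1 (-0.02) and after the length adjustment (-0.01), an alternative chosen after seeing the data. The other 8 genes kept their direction throughout. The deviations of same-numbered libraries had correlations of 0.06, -0.14 and 0.13. Libraries of unlike number were not compared, so these values cannot show whether libraries were paired. With the replicate block 0 of the 10 genes were called and Tln1 was at -0.45 with an adjusted p of 0.57 in limma.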

Other observations

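Ratios of normalized counts within a library, chosen after their values were seen and given without a test, differed in how steady they were. The ratio of Tln1 to Fermt3 was 1.94, 1.32 and 0.96 for the GC-treated libraries 1 to 3 and 2.12, 2.06 and 1.96 for the vehicle-treated ones, while that of Tln1 to Flna stayed between 0.51 and 0.57 in all 6. The ratio of Rap1b to Rap1a was 4.01, 6.12 and 5.12 against 4.42, 3.89 and 4.72, and that of Skap1 to Fyb was 2.05, 2.05 and 2.61 against 2.12, 2.06 and 2.03. The first of these ratios joins transcripts of unlike length, Tln1 with 8399 bases and Fermt3 with 4354. After the length adjustment the log2 fold changes were -0.23 for Tln1 and 0.19 for Fermt3, against -0.45 and 0.15 before it. The part of transcript length in this ratio was not tested.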
